A study of Equus caballus with 6 samples.

Results

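The outer interzone and the transient embryonic cartilage of the horse (Equus caballus) were compared with 1 array of each, both from hindlimbs at gestational day 40. The outer interzone is the layer of the developing joint that borders the cartilage of the future bone, and the transient embryonic cartilage is that neighbouring cartilage itself. The other 4 arrays of the series held the intermediate interzone of the same stage and the superficial, middle and deep zones of adult articular cartilage from horses of 15 years, again with 1 array each. No treatment or altered gene is given for any group. All regions were cut by laser from stained frozen sections, and their messenger RNA was amplified by PCR and hybridised in 1 colour to Agilent horse arrays. How many animals gave tissue is not given in the sources used here, and whether any region was pooled was not stated there either.

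Of the 43603 probes that were not controls, 15382 were well above background, by the scanner software's own call, on both arrays. A further 3490 were well above background on the outer interzone array and not on the transient cartilage array, and 4062 the other way round. These probes represent 13753 named genes, each described by the probe with the highest mean over the 6 arrays. By that probe 4868 genes were measured on both arrays, 1090 were above background in the outer interzone alone, 1385 in the transient cartilage alone and 6307 in neither. For another 86 genes the reported probe was not above background on both arrays and another probe of the gene gave a different call. These are given no bound, and 17 genes had an outlier spot.

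The interzone is a sheet of flattened, tightly packed mesenchyme that marks where a joint will form, and it is recognised by the growth factor GDF5. Its cells are known, mainly from the mouse, to give rise to articular cartilage, ligaments and the synovial lining, whereas the adjoining cartilage enlarges, mineralises and is replaced by bone. Cartilage matrix is built of a type II collagen network, the large proteoglycan aggrecan and small adaptor proteins such as the matrilins, while fibrous and synovial tissues are rich in collagens I and III, and lubricin (the product of PRG4) coats joint surfaces.

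A few of the 60-base probes are shown first, for the 4 marker genes and for the genes that define the interzone and cartilage matrix. Each is printed 5′ to 3′ as deposited with the scanner output, with its place counted in bases within the transcript record the array maker used. PRG4, TIMP2 and GDF5 were brighter in the outer interzone, and EPYC, MATN3 and COL2A1 were dimmer there.
PRG4, lubricin, bases 108 to 167: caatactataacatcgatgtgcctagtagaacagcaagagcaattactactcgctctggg
TIMP2, a metalloproteinase inhibitor, ending at base 166: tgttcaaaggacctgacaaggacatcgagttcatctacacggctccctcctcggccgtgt
GDF5, a joint growth factor, bases 1380 to 1439: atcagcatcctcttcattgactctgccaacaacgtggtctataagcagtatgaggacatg
EPYC, a cartilage proteoglycan, bases 843 to 902: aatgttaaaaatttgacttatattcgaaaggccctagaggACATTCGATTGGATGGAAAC
EPYC, bases 883 to 942: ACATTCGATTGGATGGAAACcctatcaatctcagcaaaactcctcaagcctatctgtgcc
MATN3, a matrilin, bases 1180 to 1239: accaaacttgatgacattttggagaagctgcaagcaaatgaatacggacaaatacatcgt
COL2A1, the type II collagen chain, bases 216 to 275: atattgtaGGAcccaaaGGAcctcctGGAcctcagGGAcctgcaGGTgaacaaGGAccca
The capitals in the 2 EPYC probes mark the 20 bases they share, so these probes are not independent. The capitals in the COL2A1 probe mark the glycine codons of its open frame, 6 of 19 codons with 2 other codons between each pair, which is the repeat of a collagen triple helix.

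Levels are given as scaled signal, which is the processed signal over the array's 75th percentile among the 1765 probes above background on all 6 arrays, times 1000. The weakest probe above background stood at a scaled signal of 2.04 in the outer interzone and 2.19 in the transient cartilage. Where a probe was not well above background on 1 array, the fold is a bound set against the higher of that limit and the probe's own signal, and it is written as "at least". A gene counted as above background on 1 array alone can lie close to that limit, so such counts include genes with a small bound or none. Differences are log2 of the outer interzone over the transient cartilage, so a positive value means higher in the outer interzone. There were no replicates, so no difference has a replicate check, no p-value is given and the size of each difference is a description of these 2 arrays. The error that the scanner software assigned to each spot gave a median standard error of 0.21 on the log2 scale. It was the same 0.204 for many bright genes, among them COL2A1, COL3A1 and ACTB, so it was not a separate measure of each spot. Across 883 genes with probes that do not overlap, the pooled SD between the log2 differences of probes for 1 gene was 0.82, with a median SD of 0.36. Neither covers the spread between animals, dissections or amplifications. Dim signals carry a further uncertainty from the background: with normexp background correction, which adds an offset before log2 is taken, differences that rest on a dim array shrink. Where that correction took a named difference below 4-fold or moved it by over 1.5 times, its value is given as "under normexp". The bounds were not recalculated with it. They rest on a dim array too, so "at least" holds only for the background subtraction of the scanner software. In such tissue samples, fewer cells of a type and less RNA per cell cannot be told apart.

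PRG4 and TIMP2 were taken to mark the outer interzone and EPYC and MATN3 the transient cartilage. These markers were chosen with earlier results of these data known, so the side on which each stood is a description. PRG4 had a scaled signal of 10342 in the outer interzone and 18.2 in the transient cartilage, a log2 difference of 9.15 with a spot standard error of 0.21. On the intermediate interzone array it was 14542, and on the adult superficial, middle and deep arrays 32461, 104 and 1081. TIMP2 had 305 in the outer interzone and 4.26 in the transient cartilage, a difference of 6.16 with a spot standard error of 0.25. EPYC, known as epiphycan and typical of growth cartilage, had 64.2 in the outer interzone and 17962 in the transient cartilage, a difference of -8.13. MATN3 had 23.5 in the outer interzone and 1803 in the transient cartilage, a difference of -6.26. Neither EPYC nor MATN3 was well above background on the intermediate interzone array or on any adult array, so on these 6 arrays each was detected in the outer interzone and the transient cartilage alone. TIMP2 was highest on the adult deep array, at 10864, and not above background on the adult middle array. Under normexp PRG4, TIMP2 and MATN3 had differences of 8.10, 3.77 and -5.64.

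Among the 4868 genes measured on both arrays, 519 (10.7%) were higher by 4-fold or more in the outer interzone and 403 (8.28%) lower by 4-fold or more. At 2-fold the counts were 1222 higher (25.1%) and 975 lower (20.0%), and 2671 genes (54.9%) lay within 2-fold. Genes above background in the outer interzone alone made up 14.6% of the 7443 genes above background on either array, and those in the transient cartilage alone 18.6%. The median difference over all measured genes was 0.08, with quartiles of -0.74 and 1.00. With the genes ordered by mean signal into 4 bins of 1217, the share past 4-fold was 20.5% in the dimmest bin, 29.7% and 18.3% in the next bins and 7.31% in the brightest. Genes that most cells use also spread: of 16 measured ubiquitous genes, HPRT1 and TUBA1A were higher by 4-fold or more in the outer interzone (differences of 2.45 and 2.05), PPIA lay at -1.69 and ACTB at -0.61, around a median of -0.30. Under normexp TUBA1A had a difference of 1.23. A change of scaling alone took TUBA1A, VCAN, FN1, RECK, PLK1, COL24A1 and SEMA6D, which lay just past 4-fold, below it. The counts for each gene list below are to be read against the percentages given here.

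**Figure D1:**
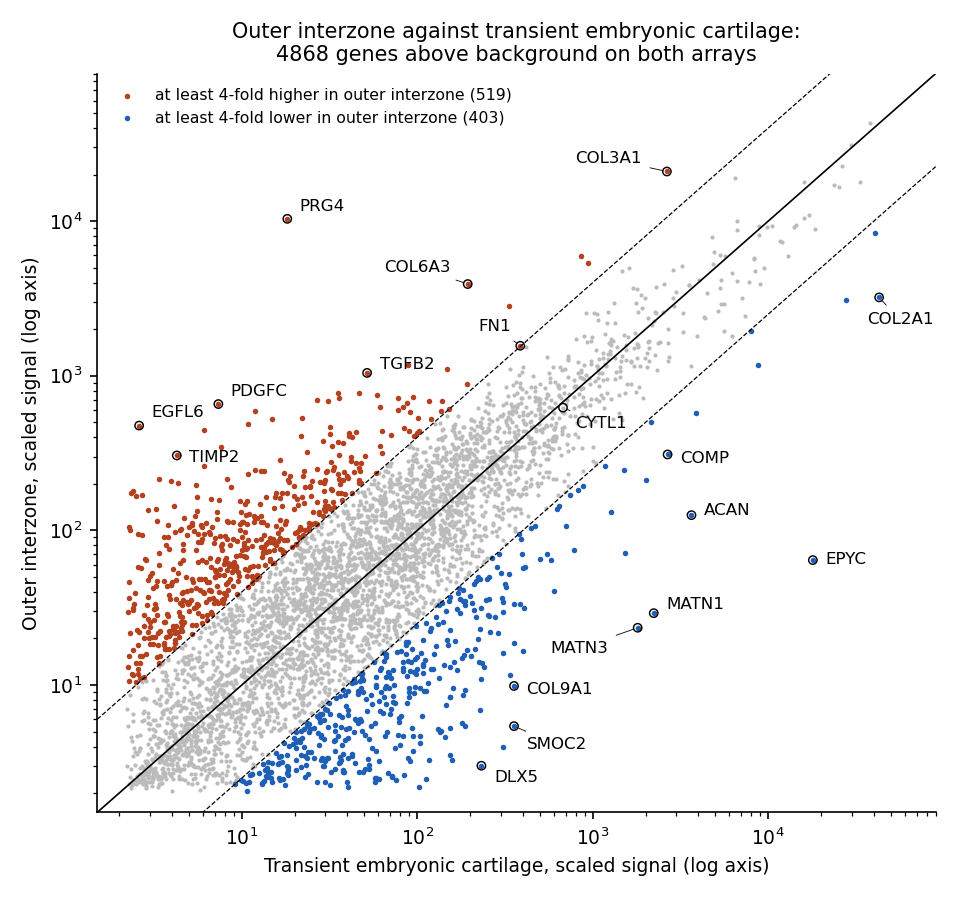
Scaled signal of the 4868 genes measured on both arrays, with the transient embryonic cartilage on the horizontal and the outer interzone on the vertical log axis. Each point is 1 gene by its reported probe, the solid line marks equal signal, the dashed lines mark 4-fold, red points (519) are higher by 4-fold or more and blue points (403) lower by 4-fold or more in the outer interzone, and PRG4 and EPYC lie farthest from the line.

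All 7 measured cartilage collagens were lower by 4-fold or more in the outer interzone, around a median difference of -3.18 against 0.08 for all measured genes. COL2A1, the main chain of cartilage fibrils, had a scaled signal of 3212 in the outer interzone and 42857 in the transient cartilage, 13.3-fold lower, and its 6 probes spread between -3.79 and -3.40. COL9A1, which decorates those fibrils, had 9.86 in the outer interzone and 356 in the transient cartilage, 36.1-fold lower. COL9A2 and COL9A3, chains of the same trimer, were 4.89-fold and 9.06-fold lower, so the size of the contrast differed between the reported probes of the 3 chains. COL9A1 and COL9A2 had only 1 probe each. The fibril-nucleating chains COL11A1 and COL11A2 were 7.46-fold and 14.9-fold lower. The remaining member, COL27A1, had 506 in the outer interzone and 2162 in the transient cartilage. Under normexp COL9A1, COL9A2 and COL9A3 had differences of -3.83, -2.40 and -3.30, closer together than before. COL2A1, COL9A2, COL9A3 and COL11A1 remained far above background in the outer interzone, at 3212, 8337, 3075 and 1171, so the outer interzone array carried cartilage collagen RNA at a lower level.

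Of the 15 measured cartilage proteoglycans and other matrix proteins, 9 were lower by 4-fold or more in the outer interzone and 1 higher by 4-fold or more, with a median difference of -3.11. The markers EPYC and MATN3 were among the 9. ACAN, the core protein of aggrecan, had 126 in the outer interzone and 3653 in the transient cartilage, 29.1-fold lower, with probes at -4.86 and -3.58. The matrilins divided. MATN1 had 29.2 in the outer interzone and 2227 in the transient cartilage, 76.4-fold lower, and MATN4 was 77.99-fold lower, whereas MATN2, found in many connective tissues, had 177 in the outer interzone and 179.9 in the transient cartilage. CNMD, the anti-angiogenic protein chondromodulin, was 21.3-fold lower. The secreted protein MIA was 9.67-fold lower and the collagen-binding COMP 8.62-fold lower. HAPLN1, the link protein that ties aggrecan to hyaluronan, and CHAD, a leucine-rich collagen-binding protein, were above background in the transient cartilage alone, lower by at least 161-fold and by at least 198-fold in the outer interzone. CYTL1, a secreted protein of chondrocytes, stood apart from these at 622 in the outer interzone and 677 in the transient cartilage, against 12.3 on the intermediate interzone array. The gene counted on the other side was FMOD, a collagen-fibril proteoglycan also abundant in tendon, at 34.4 in the outer interzone and 4.85 in the transient cartilage by its reported probe. Its separate probe had 2.55 in the outer interzone and 4.12 in the transient cartilage, a difference of -0.69, so its direction was not settled. Under normexp FMOD had a difference of 0.96 and MATN4 one of -4.20.

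Few chondrocyte regulators were measured on both arrays. SOX9, the master factor of cartilage formation, had 517 in the outer interzone and 1478 in the transient cartilage by its reported probe, a difference of -1.51. Its other probe had 149 in the outer interzone and 23.4 in the transient cartilage, a difference of 2.67, so the direction of SOX9 was not settled by these arrays. DLX5, a homeodomain factor of cartilage and bone, was 77.2-fold lower in the outer interzone, at 3.01 against 232 in the transient cartilage. WWP2, a ubiquitin ligase whose gene houses a cartilage microRNA, was 10.6-fold lower. S100B, a calcium-binding protein of chondrocytes and glia, was at least 95.6-fold lower and RUNX2, which drives chondrocyte maturation and bone formation, at least 11.2-fold lower. TRPS1, a repressor in joint-forming and perichondrial cells, was higher in the outer interzone by 2.54, and FOXC2, a mesenchymal forkhead factor, by at least 11.96-fold. In all, 1 of 5 measured regulators was higher by 4-fold or more and 2 lower by 4-fold or more, and 7 others were above background in the transient cartilage alone and 1 in the outer interzone alone. Among those 7, FOXA3 and CREB3L2 had bounds of only at least 1.39-fold and 1.56-fold. Under normexp TRPS1 had a difference of 1.52 and DLX5 one of -3.86.

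The hypertrophy markers COL10A1, MMP13 and SPP1 were above background on neither array. IHH, made by prehypertrophic chondrocytes, had a scaled signal of 12.2 in the transient cartilage and was not above background in the outer interzone, a bound of at least 5.97-fold lower. PTHLH, the signal that holds chondrocytes back from hypertrophy, had 16.5 in the outer interzone and was not above background in the transient cartilage, at least 7.52-fold higher. PTH1R, the receptor for the PTHLH peptide, had a difference of -0.55. The ligands of the 2 arms of this loop were thus detected on different arrays, while 7 of the 14 genes of the list were above background on neither.

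**Figure D2:**
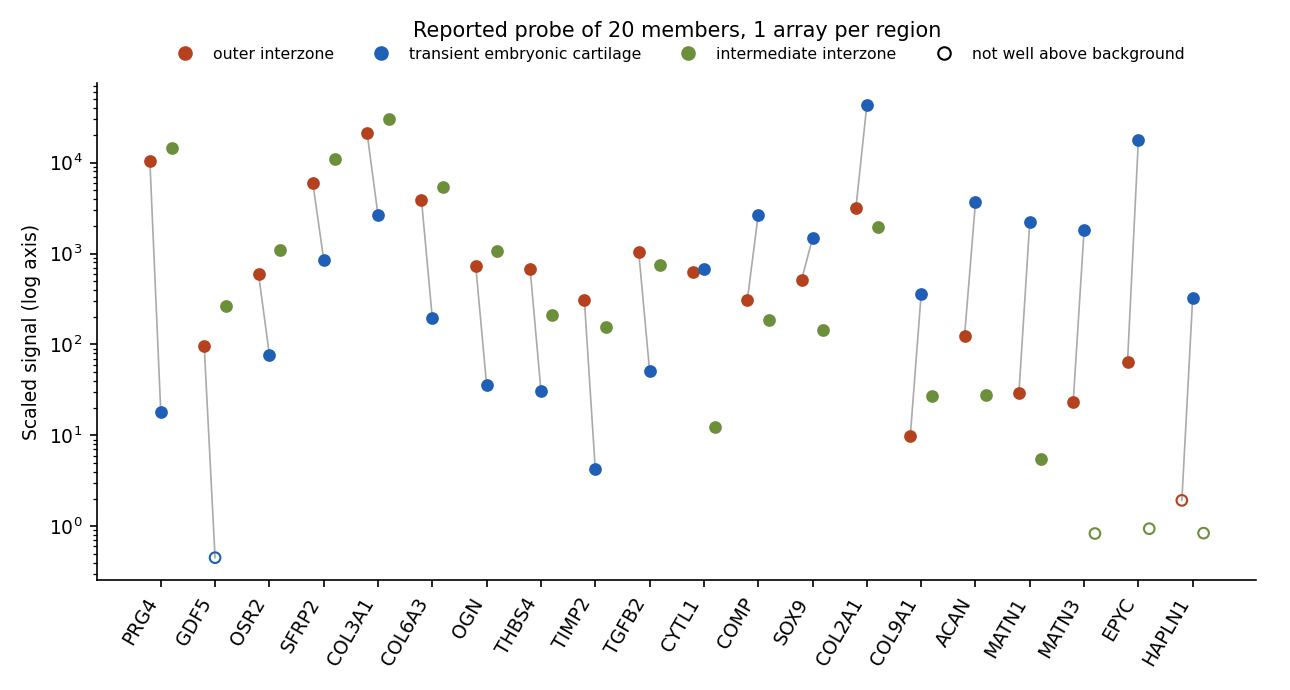
Scaled signal on a log axis of 20 genes by their reported probe, with 1 point for each array: outer interzone, transient embryonic cartilage and, for context, intermediate interzone. A grey line joins the outer interzone and transient cartilage points of a gene, and open circles are not well above background. PRG4 has the widest gap of those higher in the outer interzone, EPYC the widest of those lower, and the CYTL1 points of the 2 regions almost coincide.

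Genes of the joint interzone lay on the other side. Of 14 measured, 8 were higher by 4-fold or more in the outer interzone and 1 lower by 4-fold or more, 6 more were above background in the outer interzone alone, and the median difference was 2.68. That median lay between 1.51 and 2.68 across the scalings tried and normexp. The marker PRG4 was among the 8, and 9 of the 30 list genes on the array were above background on neither array. GDF5, the growth factor that defines the interzone, had 96.1 in the outer interzone and was not above background in the transient cartilage, at least 43.9-fold higher, while the intermediate interzone array had 267.5. EGFL6, a matrix-bound growth factor, was 183-fold higher, at 476 in the outer interzone and 2.60 in the transient cartilage, where the limit of detection was 2.19. The transcription factors OSR1 and OSR2, needed together for mouse joint formation, were 13.03-fold and 7.70-fold higher. BARX2 was 43.3-fold higher, and its relative BARX1, a homeobox factor of joint mesenchyme, at least 22.5-fold higher. CD44, the hyaluronan receptor, was at least 47.0-fold higher. ERG, an ETS factor of articular progenitors, had a smaller difference of 1.09. WNT4, a ligand used as an interzone marker in the mouse, went the other way, lower in the outer interzone by at least 7.03-fold, as did PITX1, the hindlimb identity factor, at 6.45 in the outer interzone and 40.5 in the transient cartilage. Under normexp EGFL6 and BARX2 had differences of 4.40 and 2.33, and OSR1 and PITX1, at 0.99 and -1.58, were no longer past 4-fold.

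The 6 measured hyaluronan and lubrication genes, PRG4 among them, had 3 members above 0 and 3 below, and 2 others were above background on each array alone. VCAN, the large hyaluronan-binding proteoglycan of embryonic mesenchyme, had 526 in the outer interzone and 119 in the transient cartilage, a difference of 2.14 that was 1.78 under normexp. HAS2, the main hyaluronan synthase of the limb, had a difference of -0.74, and UGDH, which makes a sugar precursor for it, -0.88. The hyaluronidase HYAL2 was lower in the outer interzone by at least 23.2-fold. Aggrecan and versican, the related hyaluronan-binding proteoglycans, therefore lay on opposite sides of equal signal.

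Among fibrillar and other collagens outside the cartilage set, 3 of 15 measured were higher by 4-fold or more in the outer interzone and none lower by 4-fold or more, while 4 more were above background in the outer interzone alone and 2 in the transient cartilage alone. COL3A1, typical of loose and vascular connective tissue, had 20934 in the outer interzone and 2646 in the transient cartilage, 7.91-fold higher. COL6A3, a chain of the beaded filaments around cells, had 3918 in the outer interzone and 194 in the transient cartilage, 20.2-fold higher. COL24A1, the other of the 3, had 50.8 in the outer interzone and 11.4 in the transient cartilage. Its difference of 2.16 was 1.18 under normexp, no longer past 4-fold. The basement membrane chains COL4A1 and COL4A2 were higher by at least 43.5-fold and by at least 80.9-fold, and COL6A6 at least 104-fold higher. The type I collagen chains, the bulk of bone and tendon, were bright on both arrays and differed little: COL1A1 had 7904 in the outer interzone and 4801 in the transient cartilage, and COL1A2 had 17107 in the outer interzone and 23653 in the transient cartilage. Chains of 1 type did not always go together: COL4A5 and COL6A1 had differences of -0.15 and -0.02, and COL4A6 was faintly above background in the transient cartilage alone. COL15A1, a chain near basement membranes, lay at -1.55.

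Tendon, ligament and perichondrium genes had a median difference of 1.66 over 10 measured, with 3 higher by 4-fold or more in the outer interzone, none lower by 4-fold or more and 5 above background in the outer interzone alone. That median lay between 1.12 and 1.92 across the scalings tried and normexp. THBS4, a matrix protein of tendon, had 683 in the outer interzone, 30.9 in the transient cartilage and 209 on the intermediate interzone array, so it was brightest in the outer layer. The tendon transcription factor MKX was 16.4-fold higher, at 48.1 in the outer interzone and 2.93 in the transient cartilage. SPARCL1, a counter-adhesive glycoprotein, was at least 243-fold higher. Under normexp MKX had a difference of 1.41, no longer past 4-fold, and THBS4 one of 3.67. SCX, the early tendon factor, was above background in the outer interzone alone with a bound of at least 2.55-fold. POSTN and TGFBI, adhesive proteins of fibrous tissue, were higher by 1.68 and 1.64, whereas TNC had 1654 in the outer interzone and 2412 in the transient cartilage.

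The small leucine-rich proteoglycans, which bind collagen fibrils, split around a median of -0.27, with 2 of 9 measured higher by 4-fold or more, 1 lower by as much, 3 above background in the outer interzone alone and 1 in the transient cartilage alone. ASPN was higher in the outer interzone by at least 205-fold, at 449 there. OGN had 722 in the outer interzone and 35.8 in the transient cartilage, 20.2-fold higher. LUM had 1954 in the outer interzone and 5607 in the transient cartilage, a difference of -1.52. EPYC, a member of this family too, set its lower end. Under normexp OGN had a difference of 3.70. Elastic fibre genes leaned to the interzone side, with 3 of 12 measured higher by 4-fold or more, 1 lower by 4-fold or more and a median of 0.83. Among them LTBP1, which stores latent TGF-beta in the matrix, was 10.2-fold higher and FBLN5, needed for elastic fibre assembly, at least 169.6-fold higher, while the crosslinking enzyme LOXL3 was lower by all 7 of its measured probes, which lay between -6.73 and -2.61.

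Matricellular and adhesive glycoproteins went both ways, with 5 of 24 measured higher by 4-fold or more and 7 lower by 4-fold or more in the outer interzone, and 3 others above background in the outer interzone alone and 5 in the transient cartilage alone. FN1, fibronectin, had 1563 in the outer interzone and 386 in the transient cartilage, and its 9 probes lay between 2.02 and 2.83. LAMB1, a laminin chain of basement membranes, was 7.68-fold higher. The related calcium-binding proteins SMOC1 and SMOC2 lay on opposite sides: SMOC1 had 72.7 in the outer interzone and 13.7 in the transient cartilage, while SMOC2 had 5.42 in the outer interzone and 356 in the transient cartilage, 65.7-fold lower. THBS1 and THBS4, both thrombospondins, likewise differed in direction, THBS1 being 11.5-fold lower. CCN2, a connective tissue growth factor, was at least 20.1-fold higher and its relative CCN1 lower, at -2.66. Under normexp SMOC1 had a difference of 1.41, no longer past 4-fold, and SMOC2 and THBS1 had -4.30 and -2.82. HSPG2, the perlecan core protein, and EDIL3, an integrin ligand, were above background in the transient cartilage alone, lower by at least 67.7-fold and by at least 146-fold in the outer interzone.

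**Figure D3:**
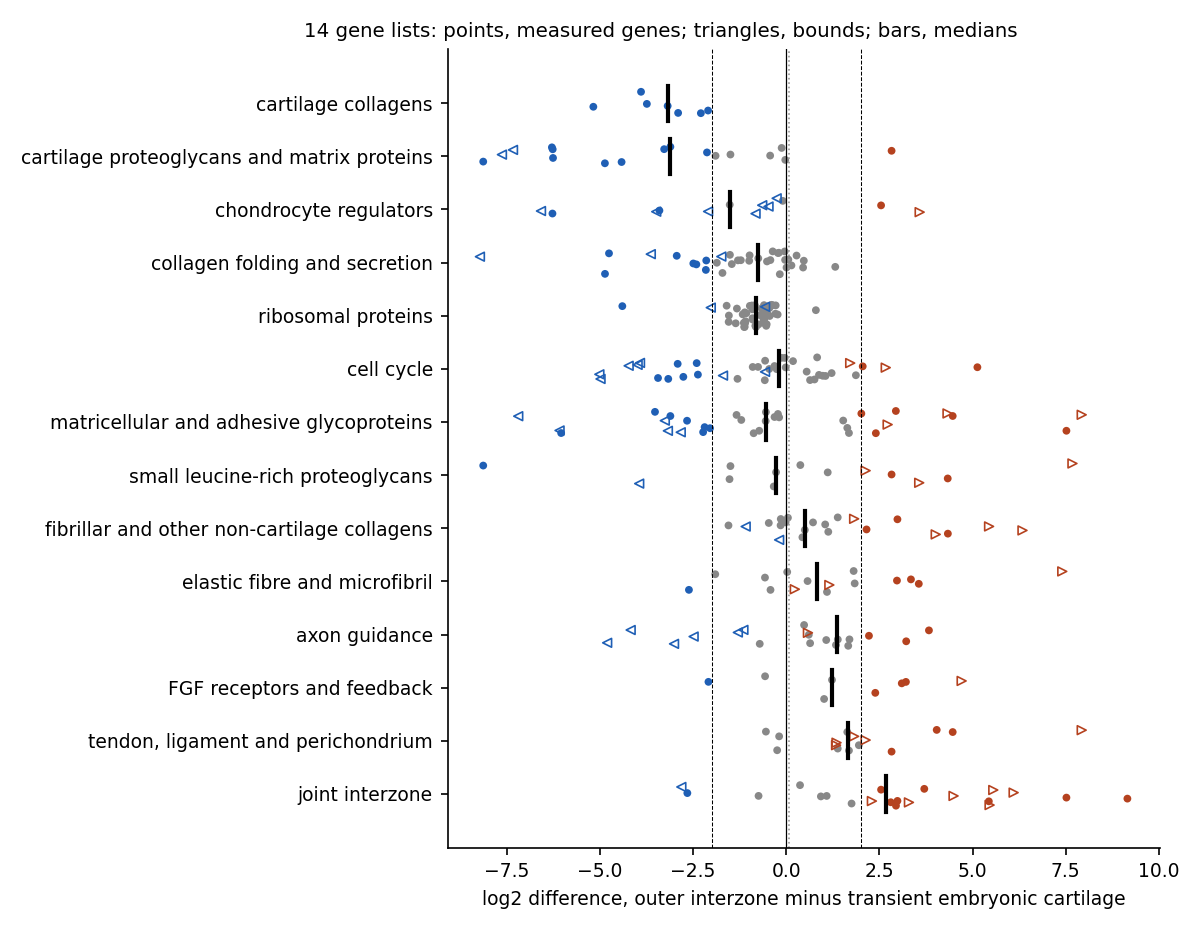
Log2 differences (outer interzone minus transient embryonic cartilage) of the genes in 14 lists, 1 list per row. Filled points are measured genes, open triangles are bounds for genes above background on 1 array, thick bars are medians over measured genes, dashed lines mark 4-fold and the dotted line is the median of all measured genes (0.08). Cartilage collagens have the lowest median (-3.18) and joint interzone genes the highest (2.68).

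Metalloproteinases were mostly dim, with 26 of 44 above background on neither array, 4 in the outer interzone alone, 5 in the transient cartilage alone and no measured member past 4-fold. MMP14, a membrane collagenase, had 1036 in the outer interzone and 1079.6 in the transient cartilage. ADAMTS12 was at least 22.9-fold lower and ADAMTS2, which trims procollagen, higher in the outer interzone by at least 12.5-fold. Of 7 measured protease inhibitors, 2 were higher and 1 lower by 4-fold or more, 5 lay below 0, and 2 others were above background in the outer interzone alone and 3 in the transient cartilage alone. The marker TIMP2 was 1 of the 2 that were higher by 4-fold or more. TIMP1, a tissue inhibitor of metalloproteinases, was at least 10.9-fold higher, RECK, a membrane-anchored inhibitor, 4.38-fold higher, and TIMP3, which binds to matrix, 10.9-fold lower, at 8.86 in the outer interzone and 96.3 in the transient cartilage. The general inhibitor A2M was above background in the transient cartilage alone. Under normexp RECK had a difference of 1.17, no longer past 4-fold, and TIMP3 one of -2.33.

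Genes for collagen folding and secretion were lower in the outer interzone in 24 of 31 measured cases, with 7 lower by 4-fold or more, none higher by 4-fold or more and a median of -0.75, and 3 others were above background in the transient cartilage alone. P4HA3, a collagen prolyl hydroxylase subunit, was at least 298-fold lower, with 607 in the transient cartilage. Its relative P4HA2 had a difference of -2.49. FKBP14, a folding enzyme of the endoplasmic reticulum, was 29.1-fold lower, at 11.7 in the outer interzone and 339.6 in the transient cartilage. PCOLCE2, a helper of procollagen processing, was 26.98-fold lower while its relative PCOLCE lay at 1.32. SEC13 and SEC24D, coat proteins of the vesicles that leave the endoplasmic reticulum, had differences of -2.94 and -2.16. SERPINH1, the collagen chaperone, had 244 in the outer interzone and 885 in the transient cartilage. Under normexp FKBP14 and PCOLCE2 had differences of -3.86 and -2.98, SEC24D, at -1.88, was no longer past 4-fold, and PCOLCE, at -0.03, lost its direction.

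Of 5 measured ligands of the TGF-beta family, 2 were higher by 4-fold or more in the outer interzone and none lower by as much, and 2 others were above background on each array alone. TGFB2 had 1043 in the outer interzone and 51.8 in the transient cartilage, 20.2-fold higher, with probes at 4.33 and 4.66. INHBA, an activin subunit, was 9.79-fold higher. BMP4 had 86.8 in the outer interzone and 337 on the intermediate interzone array and was not above background in the transient cartilage, at least 39.6-fold higher. BMP7, in contrast, was above background in the transient cartilage alone, lower in the outer interzone by at least 16.9-fold. Of 14 receptor genes, 6 were above background in the outer interzone alone and none in the transient cartilage alone, among them ACVRL1 (at least 21.6-fold higher), ENG (at least 14.1-fold) and BMPR1B (at least 5.38-fold), while TGFBR2 lay at 0.93. Secreted antagonists differed in direction: FST, the activin-binding follistatin, was at least 42.96-fold higher, and SOSTDC1 and TWSG1, which bind BMPs, were at least 27.2-fold and 35.7-fold lower. Among intracellular mediators and targets, SKI, a repressor of the pathway, was higher by 3.09 and ID4, an inhibitor of basic helix-loop-helix factors, by 2.35. These were the 2 of 9 measured that were higher by 4-fold or more, and none was lower by as much. ID2, related to ID4, lay at -1.48, and 2 others were above background in the outer interzone alone and 1 in the transient cartilage alone. Under normexp INHBA, SKI and ID4 had differences of 1.70, 1.02 and 1.16, no longer past 4-fold, and TWSG1 and TGFBR2 had -3.03 and 0.30.

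WNT genes were sparse, with 12 of 19 ligands above background on neither array, 2 in the outer interzone alone and 3 in the transient cartilage alone. WNT11, a ligand of the planar polarity branch, had 124 in the outer interzone, 5.39 in the transient cartilage and 446 on the intermediate interzone array, 22.96-fold higher in the outer interzone than in the transient cartilage. The secreted inhibitors went both ways. SFRP2 had 5991 in the outer interzone and 857 in the transient cartilage, WIF1 and DKK3 were higher by at least 35.4-fold and by at least 30.7-fold, and SFRP1 was 29.3-fold lower in the outer interzone. FRZB, an inhibitor first purified from cartilage, had 23.5 in the outer interzone and 28.3 in the transient cartilage. The co-receptor PTK7 was 13.3-fold lower, LRP6 at least 19.5-fold lower and the receptor FZD10 at least 26.5-fold higher. Among effectors, TCF7L2, GSK3B and MYC were lower in the outer interzone, at -2.03, -2.69 and -3.23, and no measured effector was higher by 4-fold or more. Under normexp TCF7L2 had a difference of -0.78, no longer past 4-fold, while WNT11, SFRP1, PTK7 and MYC had 2.25, -3.18, -2.85 and -2.15.

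Of 4 measured hedgehog pathway genes, 2 were higher by 4-fold or more in the outer interzone and none lower by as much, 3 more were above background there alone, and the ligand IHH in the transient cartilage alone. BOC, a hedgehog co-receptor, had 371 in the outer interzone and 35.4 in the transient cartilage, 10.5-fold higher, and its relative CDON was at least 35.6-fold higher. The signal transducer SMO was at least 13.6-fold higher and HHIP, a decoy receptor, at least 10.7-fold higher. GLI3, mainly a repressor, was 9.39-fold higher, at 251 in the outer interzone, and was only 4.11 on the intermediate interzone array. PTCH1, the receptor and a usual readout of the pathway, had a difference of -0.03. GLI1, another usual readout, lay at -0.17 by the reported probe and between -3.37 and -2.55 by the 6 others, so its size depended on the probe. Under normexp BOC and GLI3 had differences of 2.73 and 2.53.

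For fibroblast growth factors, the receptor and feedback genes had a median of 1.23, with 3 of 7 measured higher by 4-fold or more and 1 lower by 4-fold or more. That median lay between 0.94 and 1.63 across the scalings tried and normexp. FGFR1 had 305 in the outer interzone and 35.6 in the transient cartilage, with probes at 3.10 and 1.59. SPRY1 and SPRY2, feedback inhibitors, were higher by 3.21 and 2.39, and SPRED2, of the same family, at least 26.1-fold higher. FGFR2 and FGFR3, of which FGFR3 is known to restrain growth cartilage, were higher by 1.23 and 1.02, and FGFR4 was lower, at -2.09. Of 15 ligands, 3 were above background in the outer interzone alone, among them FGF18 and FGF10, higher by at least 7.73-fold and by at least 4.31-fold, and 2 in the transient cartilage alone, FGF12 and FGF13, at least 45.6-fold lower in the outer interzone for FGF12 and at least 8.08-fold for FGF13. PDGFC, a platelet-derived growth factor, had 656 in the outer interzone and 7.35 in the transient cartilage, 89.2-fold higher, and the lymphatic growth factor VEGFC was at least 51.1-fold higher. VEGFA lay at -0.77. Under normexp SPRY1, SPRY2 and FGFR4 had differences of 0.94, 1.03 and -1.27, so that of the genes past 4-fold in the receptor and feedback list only FGFR1 remained, and PDGFC had 4.64. None of the 3 measured Notch genes differed by 2-fold, and 4 others were above background in the transient cartilage alone.

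In the insulin-like growth factor axis, 3 of 10 measured genes were higher by 4-fold or more and 1 lower by 4-fold or more in the outer interzone, and 1 other was above background in the outer interzone alone and 4 in the transient cartilage alone. The binding proteins IGFBP2, IGFBP3 and IGFBP5 were higher by 2.31, 2.26 and 2.44, and IGFBP7 was at least 91.1-fold higher, whereas IGFBP4 was above background in the transient cartilage alone, lower in the outer interzone by at least 3.00-fold. The ligand IGF2 went the other way, at 42.1 in the outer interzone and 173 in the transient cartilage, with 554 on the intermediate interzone array. The receptor IGF1R was higher by 1.98, and PAPPA, the protease that frees the ligand from binding proteins, was at least 23.2-fold lower. Under normexp IGFBP3, IGFBP5 and IGF2 had differences of 0.23, 1.97 and -1.97, no longer past 4-fold, and IGF1R had 1.1.

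Of 13 measured limb and mesenchyme transcription factors, 4 were higher by 4-fold or more and 2 lower by 4-fold or more, and 8 others were above background in the outer interzone alone against 1 in the transient cartilage alone. Among those 8, EYA2 and LHX2 had bounds of only at least 1.14-fold and 1.26-fold. EN1, at 2.15 in the outer interzone, had no bound above equal signal. PRRX1, a marker of limb mesenchyme, had 715 in the outer interzone and 77.99 in the transient cartilage. NFIB and ZEB1 were 9.90-fold and 7.60-fold higher, and EMX2 and the hindlimb factor TBX4 higher by at least 91.9-fold and by at least 12.3-fold. SNAI2, related in function to ZEB1 as a repressor of epithelial genes, was 20.3-fold lower, by all 3 of its probes. Among HOX genes, which set position along the limb, 2 of 15 measured were higher by 4-fold or more and 1 lower by 4-fold or more, close to the shares of all genes at this threshold, and 3 others were above background in the outer interzone alone and 4 in the transient cartilage alone. Among those 4, HOXC13 and HOXD12 had bounds of only at least 1.28-fold and 1.48-fold. HOXC8 and HOXD10 were higher by 2.59 and 2.53, HOXD8 and HOXA11 at least 39.4-fold and at least 14.9-fold, HOXC6 was lower in the outer interzone by at least 8.14-fold, and HOXC9 was lower there, at -2.12. HOXA10 had 1528 in the outer interzone and 417 in the transient cartilage. Under normexp NFIB, HOXC8 and HOXD10 had differences of 1.08, 0.66 and 0.62, no longer past 4-fold, and SNAI2 had -3.08.

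Adhesion genes divided by family member, with 1 of 5 measured integrins higher and 1 lower by 4-fold or more, and 1 of 7 measured cadherins and related molecules higher and 2 lower. Above background in the outer interzone alone were 1 other integrin and 4 other cadherins, and in the transient cartilage alone 4 and 2. ITGA1, a collagen-binding integrin chain of mesenchyme, was higher in the outer interzone by at least 74.3-fold, and ITGA10, the collagen-binding chain known from chondrocytes, was at least 52.2-fold lower, at 106 in the transient cartilage. The fibronectin receptor chain ITGA5 was higher by 2.29 and ITGB5 lower, at -2.92, while the shared beta chain ITGB1 lay at 0.06. CDH11, the cadherin of mesenchyme, was higher by 1.69 and NCAM1 by 2.38, whereas CDH10 was 33.2-fold lower and was 525 on the intermediate interzone array. Of 14 measured cell-surface proteoglycans and their modifying enzymes, 3 were higher and 2 lower by as much, and 3 others were above background in the outer interzone alone and 6 in the transient cartilage alone. SDC4, a syndecan of focal adhesions, was 43.2-fold higher and was not above background on the intermediate interzone array. SULF2, a heparan sulfatase, had 697 in the outer interzone and 26.7 in the transient cartilage, 26.1-fold higher. The glypicans differed in direction: GPC4 was 10.2-fold higher and GPC3 was 6.71-fold lower, at 576 in the outer interzone and 3864 in the transient cartilage. Axon guidance genes, many of which also act between mesenchymal cells, had 11 of 12 measured members above 0 and a median of 1.36, with the ephrins EFNA1 and EFNB2 14.2-fold and 9.31-fold higher, but 6 others, among them SEMA3B and EPHA4, were above background in the transient cartilage alone and 1 in the outer interzone alone. The median of the axon guidance genes lay between 0.61 and 1.36 across the scalings tried and normexp. Under normexp ITGA5, NCAM1, EFNA1 and EFNB2 had differences of 0.89, 1.43, 1.37 and 1.89, no longer past 4-fold, while CDH10, SDC4, SULF2 and GPC4 had -3.62, 3.35, 3.93 and 2.31.

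Of 30 measured cell cycle genes, 6 were lower by 4-fold or more and 2 higher by 4-fold or more in the outer interzone, and 7 others were above background in the transient cartilage alone against 2 in the outer interzone alone. Among the lower ones, TOP2A, which untangles chromosomes, was 10.8-fold lower, the kinase AURKA was 8.96-fold lower, and the differences of CCNB1 and BUB1 were -2.91 and -2.76. MKI67, the usual marker of dividing cells, had 396 in the outer interzone and 234 in the transient cartilage, and CDK1 lay at -0.04. CDK2 was 35.0-fold higher, and the mitotic genes PLK1, CCNA2 and CENPE were higher by 2.05, 1.87 and 1.22, so genes of mitosis lay on both sides. Under normexp TOP2A, AURKA, CCNB1 and PLK1 had differences of -1.97, -1.38, -1.77 and 0.57, no longer past 4-fold, and CDK2 and CCNA2 had 2.68 and 1.15.

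In glycolysis and hypoxia, 1 of 22 measured genes was higher by 4-fold or more and 2 lower by 4-fold or more, and the median was -0.02. The oxygen-sensing hydroxylases EGLN1 and EGLN2 were 16.7-fold and 24.8-fold lower, at 2.37 and 4.19 in the outer interzone and 39.6 and 104 in the transient cartilage, while EGLN3 lay at -0.74. PFKM, a phosphofructokinase, was 7.23-fold higher. Under normexp EGLN1 and PFKM had differences of -1.85 and 1.63, no longer past 4-fold, and EGLN2 and RPS10 had -2.54 and -3.21. Ribosomal protein genes were lower in the outer interzone in 43 of 44 measured cases, but 30 of the 44 were within 2-fold and 1, RPS10, was past 4-fold (21.1-fold lower). Their median was -0.82, and it lay between -0.90 and -0.59 relative to the median of all genes under the scalings tried.

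**Figure D4:**
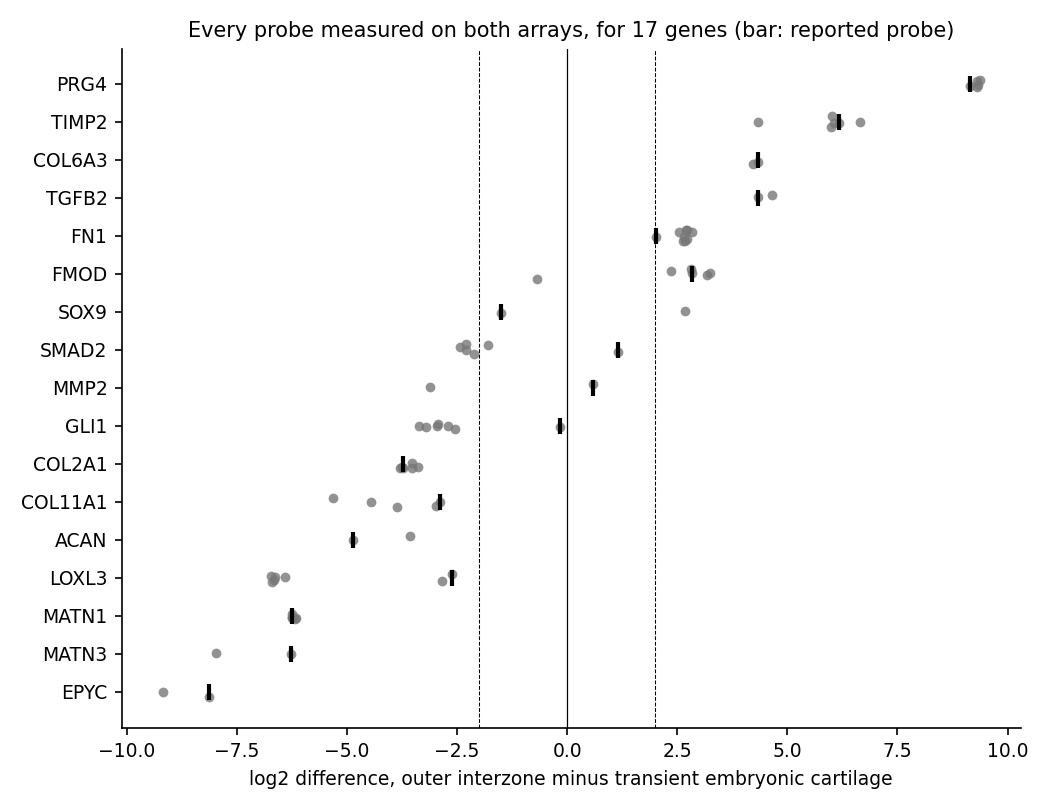
Log2 difference (outer interzone minus transient embryonic cartilage) of each probe measured on both arrays, for 17 genes, with a black bar at the reported probe and dashed lines at 4-fold. The probes of PRG4, COL2A1 and MATN1 lie close together, whereas those of SOX9, SMAD2, MMP2 and FMOD lie on both sides of 0.

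Separate probes for 1 gene could be set beside each other. PRG4 had 5 measured probes between 9.15 and 9.37, but these are shifted against each other by single bases, and its sixth probe was above background in the outer interzone alone, at 17.4. The same single-base shifts join 5 of the COL2A1 probes, the 5 MATN1 probes and 5 of the LOXL3 probes. They also join 5 of the TIMP2 and 5 of the GLI1 probes, so such sets count as 1 check each. The FN1 probes overlap as well, except that at bases 7882 to 7941. TIMP2 had 6 measured probes between 4.34 and 6.66, the lowest of them the probe printed above, at 54.4 in the outer interzone and 2.69 in the transient cartilage. The EPYC probe at bases 843 to 902 had 6.97 in the outer interzone and 4052 in the transient cartilage, a difference of -9.18, next to -8.13 for its neighbour. The COL2A1 probe printed above was dimmer than the reported one, at 22.03 in the outer interzone and 255 in the transient cartilage, and its difference of -3.53 was near that of the gene. Directions differed between probes for SOX9, FMOD (from -0.69 to 3.23), SMAD2 and MMP2 (0.60 and -3.12), and no direction is drawn for these 4 genes. The 5 FMOD probes above 0 are again shifted by single bases. The probes of ACTB, COL1A2, CDK1 and ITGB1, whose reported differences were within 2-fold, also lay on both sides of 0.

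Markers of other tissues that laser capture could include were detected on both arrays, and they did not all lie on 1 side. Of 13 epithelial markers 5 were above background in the outer interzone and 1 in the transient cartilage, with summed scaled signals of 308 in the outer interzone and 27.9 in the transient cartilage. KRT17 made up most of this, at 225 in the outer interzone, and EPCAM had 20.8, whereas CDH1, KRT5, KRT14 and TP63 were above background on neither array. Of 23 skeletal muscle markers 8 were above background in the outer interzone and 12 in the transient cartilage, with sums of 549 in the outer interzone and 721 in the transient cartilage, and MYOD1, MYOG, MYH3 and TTN were above background on neither. ACTA1, the actin of skeletal muscle, had 367 in the outer interzone and 255 in the transient cartilage. Endothelial markers summed to 252 in the outer interzone and 124 in the transient cartilage, with PECAM1, CDH5, VWF and KDR above background on neither. Most of both sums was ERG, which is also in the joint interzone list, at 230 in the outer interzone and 108 in the transient cartilage. Smooth muscle markers summed to 262 in the outer interzone and 204 in the transient cartilage, with TAGLN (205 in the outer interzone) above background in the outer interzone alone. Nearly all of the transient cartilage sum was CSPG4, which was lower in the outer interzone. CSPG4 is also in the list of cartilage proteoglycans and matrix proteins, so the sums do not show similar smooth muscle signal on both arrays. Blood markers summed to 17.7 in the outer interzone and 44.1 in the transient cartilage, nerve markers to 466 in the outer interzone and 837 in the transient cartilage, and adipocyte markers to 2.39 in the outer interzone and 38.2 in the transient cartilage. Of the 13 nerve markers 8, among them CDH19, ERBB3 and GFRA3, were above background on neither array. Macrophage and immune markers without PTPRC, 6 of whose 15 probes were bright on all 6 arrays while the rest were not, summed to 213 in the outer interzone and 81.9 in the transient cartilage, of which CD68 had 123 in the outer interzone and 51.8 in the transient cartilage. Osteoblast markers summed to 25016 in the outer interzone and 28481 in the transient cartilage, nearly all of it COL1A1 and COL1A2, and SP7, IBSP and ALPL were above background on neither. The part of these tissues in the differences between the regions was not tested.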

How the data were processed

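Per the labels, RNA from laser-captured regions was amplified by PCR and hybridised in 1 colour; per the file headers, the deposited scanner output came from version 10.7.3.1 of Agilent's Feature Extraction. The intensity used, the processed signal, was background-subtracted by the authors' scanner software, per the file headers. The authors' deposited values per probe, which follow the processed signal divided by the array's median, were used as an alternative. Their log2 was taken here. The 2 arrays lay on 1 slide together with the intermediate interzone array.

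Control spots and outlier flags were left out and spots of a probe were averaged. Each array's signal was divided by its 75th percentile among 1765 probes, those that passed the background call on every array of the series (a processed signal of 4390 for the outer interzone and 4270 for the transient cartilage), and log2 was taken. Probes were named through gene number, symbol, gene name or accession by the RefSeq table of gene names. This gave 13753 genes, of which 716 have a locus number in place of a name. For 200 probes the symbol was missing from that table and was kept, and 19396 probes stayed unnamed. A gene's reported probe is the brightest by its normalized mean across the 6 arrays. Named are the members of 47 lists, the 30 genes in each direction with the largest difference whose probes share a side, the 20 largest bounds in each direction, and 4 markers. The lists held 864 genes on the array, and 183 other list genes were not found under these names. The comparison, its members and the lists were chosen with earlier results of these data known. With 1 array per region there was no test; genes were counted at 4-fold. The calculation was tested on simulated differences. Alternatives changed the scaling, background correction (limma 3.58.1 in R 4.3.3), filter, fold and rule for probes. Well-above-background calls covered 43.3% of probes in the outer interzone and 44.6% in the transient cartilage; the number of arrays limits the precision. Some items are not reported here.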

Additional observations from a re-analysis of the deposited data

How the results depend on the processing

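No paired analysis was possible because each region had 1 array. Under scaling to other percentiles, quantile normalization, the authors' deposited values, the mean over probes and a stricter filter, the number of genes higher by 4-fold or more lay between 397 and 519 and the number lower by as much between 291 and 490. With normexp background correction the counts were 159 higher and 180 lower, without the filter on background 1493 higher and 1721 lower, and at 2-fold 1222 higher and 975 lower. Other scalings moved the median of all genes by -0.23 to -0.05 and normexp by -0.27, so that under scaling to all probes 436 genes were higher and 490 lower. The median of the IGF axis was 1.18 and turned to -0.13 without the filter; the cause was not tested. Of 153 named genes past 4-fold by the reported probe, all kept their direction under each alternative in which they were measured. Scaling to other percentiles, the deposited values and the filters shift all differences alike or leave them unchanged. These could not reverse a difference past 4-fold, so mainly normexp and quantile normalization could have done so. The mean over probes could reverse only a gene whose measured probes lay on both sides of equal signal, such as FMOD. It could not reverse a gene with a single measured probe. Nor could it reverse the genes named for the largest differences, which were chosen with probes that share a side. With normexp 110 were still past 4-fold and with quantile normalization 139. Signals near background limit the fold: below it only bounds are given.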

Other observations

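Genes outside the lists were also far apart. On the interzone side FAT4, a giant protocadherin of planar polarity, had 444 in the outer interzone and 6.11 in the transient cartilage (72.7-fold higher), MXRA5, a matrix protein, was 49.5-fold higher, PROM1, a membrane glycoprotein, 45.1-fold higher and PENK, which encodes proenkephalin, 64.2-fold higher. NDNF, a secreted neurotrophic factor, was at least 231-fold higher and MME, the peptidase neprilysin, at least 90.4-fold higher. On the cartilage side APOD, a lipid carrier, was 32.05-fold lower in the outer interzone, DDR2, a collagen-binding receptor kinase, 31.3-fold lower and KCTD4 at least 192-fold lower. Under normexp FAT4, MXRA5, PROM1, PENK, APOD and DDR2 had differences of 4.06, 4.23, 4.00, 3.35, -3.73 and -3.05.

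Some genes of general cell function lay as far out. YWHAG, a 14-3-3 protein, had 176 in the outer interzone and 2.34 in the transient cartilage, 75.1-fold higher, and was not above background on the intermediate interzone array. USP5, a deubiquitinase, had 2.20 in the outer interzone, 102 in the transient cartilage and 116 on the intermediate interzone array, 46.3-fold lower in the outer interzone than in the transient cartilage. Under normexp YWHAG and USP5 had differences of 3.05 and -2.86.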
